A study of Homo sapiens with 16 samples.

Results

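The cells were PC9, an established human lung adenocarcinoma line driven by a mutant EGFR, in which METTL7A had been knocked out. Positions of TOP2B in untreated knockout cells were compared with those in knockout cells kept under osimertinib, an inhibitor of mutant EGFR. That treatment lasted 6 to 8 weeks, and its dose was stepped up from a start at 100 nM. Both groups carried the knockout, and the labels do not say whether the knockout line was 1 clone or whether replicates came from separate cultures. The assay was CUT&RUN, in which an antibody tethers a nuclease that releases the DNA around its target. Each group had 2 replicate libraries with the TOP2B antibody, which the authors had combined into 1 deposited list of intersected peaks. Wild-type cells, untreated or under the same treatment, gave the 2 other lists. The members were all intervals on chromosomes 1 to 22 of the 2 knockout lists, 12141 untreated and 7168 treated, together 19309 of the 44922 intervals in the 4 lists of the series. Samples with the H2A antibody were not analysed here.

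TOP2B is the beta isoform of DNA topoisomerase II. It cuts both strands of a DNA duplex, passes another duplex through the break and reseals it, and so relieves the twist and tangling that transcription and chromosome looping create. Unlike the alpha isoform it is also present in cells that do not divide, and it is known from promoters, enhancers and the anchors of chromatin loops. METTL7A belongs to the methyltransferase-like family of proteins.

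Each condition was represented by 1 list, so there was no spread between replicates to set a difference against, and no test between conditions was possible. The 95% limits describe counting error alone. They treat intervals as independent, which neighbours are not, and are therefore too narrow. The lists do not give the depth of their libraries. The METTL7A gene was not examined, because no annotation of GRCh37, the build of the lists, was used here, so the lists do not check the genotype label.

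The list of treated knockout cells held fewer and narrower TOP2B intervals than that of untreated ones. Untreated intervals were 1650 bp wide at the median (quartiles 1250 and 2200) and covered 22.4 Mb of the autosomes. Treated intervals were 1150 bp wide (quartiles 800 and 1500) and covered 8.82 Mb. The ratio of treated to untreated was 0.59 by number of intervals and 0.394 by covered length. A called peak can stand in a list as several intervals, recognised here by an identical chromosome, area, maximum and region of the maximum. Such pieces made up 3.27% of the untreated and 32.3% of the treated intervals. Counted as called peaks, the lists held 11942 and 5845 peaks, a ratio of 0.489. The treated list was therefore shorter by every count, and most so by length. In a list of intersected peaks, number and width can also depend on how far the replicate libraries agree. That was not tested.

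The lowest maximum of a called peak was similar in both lists, 0.145 in the untreated and 0.152 in the treated list on the authors' signal scale. These values were 2 and 4 times the smallest step between values in their lists, and the median maxima were 5 and 8 steps. Signal heights are therefore coarse, more so in the untreated list, and heights are given relative to the median of their own list. The sources used here do not say from which replicate library a maximum was taken, so a height is not known to combine both.

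Most of the untreated TOP2B positions had no counterpart in treated cells. A counterpart is any interval of the other knockout list that shares 1 bp or more. Of the 12141 untreated intervals, 2739 had a treated counterpart, a share of 22.6% (95% interval 21.8 to 23.3), and 9402 had none. Of the 7168 treated intervals, 3048 had an untreated counterpart, 42.5% (41.4 to 43.7), and 4120 had none. The gap between the directions went with the unequal length of the lists. When each list was limited to its 5845 highest called peaks, the shares were 31.1% for untreated and 30.7% for treated intervals.

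Intervals without a counterpart often lay close to an interval of the other list. For the untreated intervals without a counterpart, the median distance to the nearest treated interval was 14.95 kb (interquartile range 3.85 to 67.0), and 9.33% of them lay within 1 kb. For the treated ones the median distance to the nearest untreated interval was 5.0 kb (1.35 to 23.3), and 20.8% lay within 1 kb. Within 100 kb the shares were 80.2% and 89.9%. Most treated positions without a counterpart were thus in stretches where the untreated list also had intervals. The untreated list was longer and covered more bases, so a short distance to it is met more easily. How far this sets the distances was not tested.

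Where positions overlapped, the treated interval was usually the narrower of the pair. The 3214 overlapping pairs had the wider interval in the untreated list in 78.7% of cases and in the treated list in 20.1%. The treated interval lay wholly inside the untreated one in 1352 pairs, and the reverse held in 208. Another 1650 pairs overlapped in part, and 4 were identical. The treated list was narrower as a whole. Of its 3048 intervals in pairs, 1387 were pieces of split peaks, against 74 of 2739 in the untreated list. How far these differences set the widths within pairs was not tested. The overlap covered a median of 87.5% of the treated and 38.1% of the untreated interval. Midpoints were a median of 700 bp apart (325 to 1225), with a median signed shift of 0 bp. The bases in common came to 3.26 Mb, which is 14.5% of the untreated and 36.9% of the treated covered length. Of the untreated intervals in pairs, 2346 had 1 treated partner, 335 had 2, and 58 had 3 or more.

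Wide and high intervals more often had a counterpart. Among untreated intervals of up to 1000 bp the share was 8.74% (7.52 to 10.1), and among those over 3000 bp it was 58.2% (55.3 to 61). Among treated intervals of the same widths it was 33.5% (31.7 to 35.3) and 88.8% (83.3 to 93). By height, the share in the untreated list went from 12.6% (11.5 to 13.8) for called peaks below the list median to 61.8% (54.5 to 68.7) for those at 2 times the median or more. In the treated list these shares were 27.4% (25.7 to 29.1) and 86.6% (79.1 to 92.1). A wider interval has more bases that can overlap, so width and counterpart share are linked by construction.

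Crowding of intervals went with the counterpart share as well. Untreated intervals with no neighbour of their own list within 100 kb had a treated counterpart in 4.55% of cases (3.3 to 6.09), against 35.2% (34 to 36.4) of those with over 10 neighbours. For treated intervals the same shares were 11.3% (9.18 to 13.7) and 60.2% (58.5 to 61.8). The contrast was present within width classes. For untreated intervals over 1500 bp wide the share was 6.61% (5.29 to 8.14) with up to 2 neighbours and 42.7% (41.1 to 44.2) with over 10. For untreated intervals of up to 1500 bp it was 3.83% (2.79 to 5.1) and 22.2% (20.5 to 24). Where the other list is dense too, an overlap is met more easily, and how much of these contrasts that makes up was not tested.

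**Figure D1:**
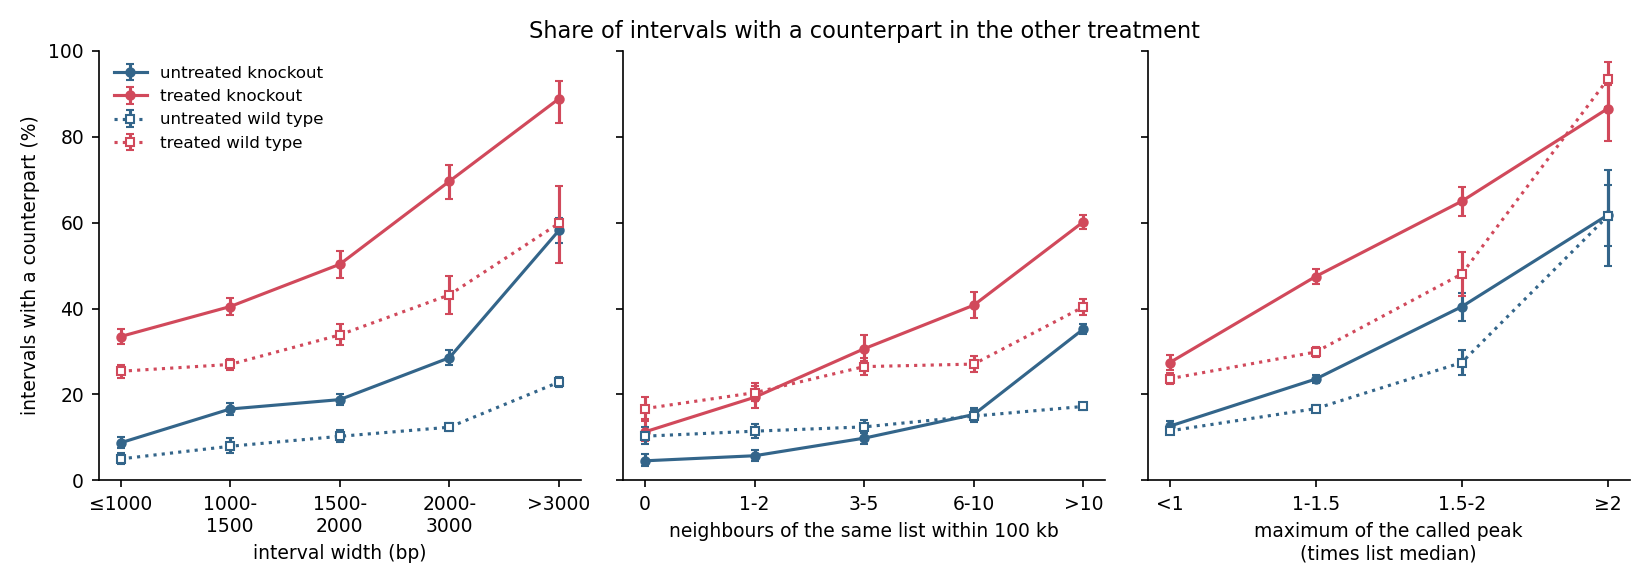
Share of intervals (%) with a counterpart in the list of the other treatment, by interval width in bp, by number of neighbours of the same list within 100 kb, and by maximum of the called peak relative to the list median. Filled circles are the knockout and open squares wild type, blue untreated and red treated, bars are exact 95% intervals for counting error, and the knockout lines climb from 8.74% to 58.2% (untreated) and from 33.5% to 88.8% (treated) across widths.

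Heights of shared called peaks were only loosely related between the lists. Over 2837 pairs of overlapping called peaks, the ratio of the treated to the untreated maximum, each relative to its list median, had a median of 0.937 (interquartile range 0.75 to 1.18). It was at least 2 in 36 pairs and at most 0.5 in 77. Across the 2819 pairs with both maxima under 5 times the median, Spearman's rho was 0.216 and Pearson's r of the log2 values 0.246. These are correlations across positions of 2 lists, in coarse steps of signal, and are given as a description. With the 18 highest pairs included, Pearson's r was 0.565 and rho 0.23.

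The highest TOP2B peaks stood at the same positions with and without the drug. All 15 untreated and all 13 treated called peaks with a maximum at least 5 times their list median had a counterpart in the other knockout list. Each of these 28 peaks also overlapped an interval in both wild-type lists. The highest lay on chromosome 7 at 61968401 to 61970650 in untreated cells, 220 times the list median, and at 61968551 to 61971350 in treated cells, 251 times the median. On chromosome 1, at 121484051 to 121485500, the untreated peak reached 95.8 times the median, and the treated peak at 121484301 to 121485500 reached 121 times (120.75). The peaks at 58776151 to 58780150 and 58776201 to 58780000 of chromosome 6 reached 87.6 and 83.8 times their medians. The other two of the 5 highest pairs lay on chromosome 16, which held 7 untreated and 4 treated called peaks past 5 times the median. At 46419251 to 46430500 untreated and 46419401 to 46430550 treated the maxima were 47.8 and 40.2 times the medians, and at 46385851 to 46393350 and 46385801 to 46387650 they were 29.6 and 29.8 times. These treated intervals on chromosome 16 were 1 of 2 and 1 of 4 pieces of their called peaks. The maximum given is that of the whole called peak and can lie outside the interval. All positions are given on GRCh37, counted from 1. No list of excluded regions was applied here, and whether these positions are repeats was not tested.

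Positions without a counterpart reached only a few times the list median. The highest in the untreated list lay at 42599551 to 42600450 of chromosome 10, at 3.2 times the median, with 0 neighbours within 100 kb. The next were at 2.4 times the median, at 57019651 to 57021600 of chromosome 19, at 60805651 to 60808300 and 3716551 to 3717550 of chromosome 20, and at 1499901 to 1502250 of chromosome 7. These 4 had between 10 and 29 neighbours. In the treated list the highest lay at 116040501 to 116041400 of chromosome 1, at 2.62 times the median, as 1 of 4 pieces of its called peak. The interval at 56391551 to 56392550 of chromosome 19, at 2.5 times, was 1 of 10 pieces. The interval at 184862401 to 184863650 of chromosome 2, also at 2.5 times, was a whole called peak. Intervals at 173258151 to 173259500 and 173262001 to 173263400 of chromosome 2 shared 1 called peak at 2.25 times the median.

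Most chromosomes held shares of the 2 lists that differed by less than 1.5-fold. A share of the list at least 1.5-fold higher or lower under osimertinib was found for 4 of 22 autosomes, 18.2%, and in the wild-type comparison for 13 of 22, 59.1%. The 4 were small contributors. Chromosome 15 held 200 untreated and 73 treated intervals, so that its list share under treatment was 0.618 of the untreated one (95% limits 0.466 and 0.812). Chromosome 22 held 40 and 14 (0.593, 0.298 to 1.11), chromosome 18 held 36 and 14 (0.659, 0.328 to 1.25), and chromosome 21 held 1 and 1. Of these 4, only the interval for chromosome 15 lies wholly on 1 side of equality. By called peaks the ratio was 0.716 for chromosome 15, 0.733 for chromosome 22 and 0.795 for chromosome 18, all differences under 1.5-fold. By covered length chromosome 15 stood at 0.643, past 1.5-fold, and chromosomes 22 and 18 at 0.75 and 0.71, short of it. Among the chromosomes under 1.5-fold, the limits lay above equality for chromosomes 1, 7 and 19. They lay below it for chromosomes 3, 5, 9, 11, 12, 14 and 16. By called peaks, however, chromosome 19 held 903 and 430, a ratio of 0.973, below equality. Its ratio by covered length stayed above equality. For chromosomes 1 and 7 the ratio stayed above equality by called peaks and by covered length. The higher share of chromosome 19 thus depended on how split peaks were counted.

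Chromosome 7, which carries EGFR, had the next highest ratio above 1 after chromosome 21. It held 1358 untreated and 1155 treated intervals, 11.2% (10.6 to 11.8) and 16.1% (15.3 to 17) of the lists, a ratio of 1.44 (1.33 to 1.56). Its ratio in wild type was 0.349 (0.311 to 0.391). Chromosome 1 followed with 8.8% (8.3 to 9.31) and 11.1% (10.4 to 11.8), a ratio of 1.26 (1.15 to 1.38), where wild type had 0.524 (0.47 to 0.583). Chromosome 20, the largest contributor, held 2530 and 1490 intervals, 20.8% of each list (ratio 0.998, 0.935 to 1.06), where wild type had 0.33 (0.3 to 0.361). Chromosome 5 had a lower share under treatment in the knockout (420 and 172 intervals, ratio 0.694, 0.577 to 0.83) and a higher one in wild type (ratio 3.72, 3.4 to 4.07).

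Chromosomes differed more in how far positions overlapped. On chromosomes 14 and 19, 67.4% (62.7 to 71.8) and 67.2% (63.3 to 70.9) of the treated intervals had an untreated counterpart. On chromosomes 5 and 3 the shares were 12.2% (7.72 to 18.1) and 14.3% (9.55 to 20.2). Chromosome 10 reached 50.9% (43 to 58.8) with 163 treated intervals, and chromosome 20 48.9% (46.4 to 51.5). On chromosome 13, 0 of 23 untreated and 0 of 11 treated intervals had a counterpart, with exact upper bounds of 14.8% and 28.5%. Intervals were more crowded on chromosomes 14 and 19 than on chromosomes 5 and 3. The median number of treated neighbours within 100 kb was 14 on chromosome 14 and 22 on chromosome 19, against 2 on chromosome 5 and 1 on chromosome 3. Crowding within the treated list and share did not go together throughout. That median was also 14 on chromosomes 1 and 7, where 44.3% (40.8 to 47.8) and 46.7% (43.8 to 49.6) of treated intervals had a counterpart. The untreated list was less crowded there. Its median number of neighbours was 9 on chromosome 1 and 15 on chromosome 7, against 25 on chromosomes 14 and 19. On chromosome 10 both medians were 10.

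**Figure D2:**
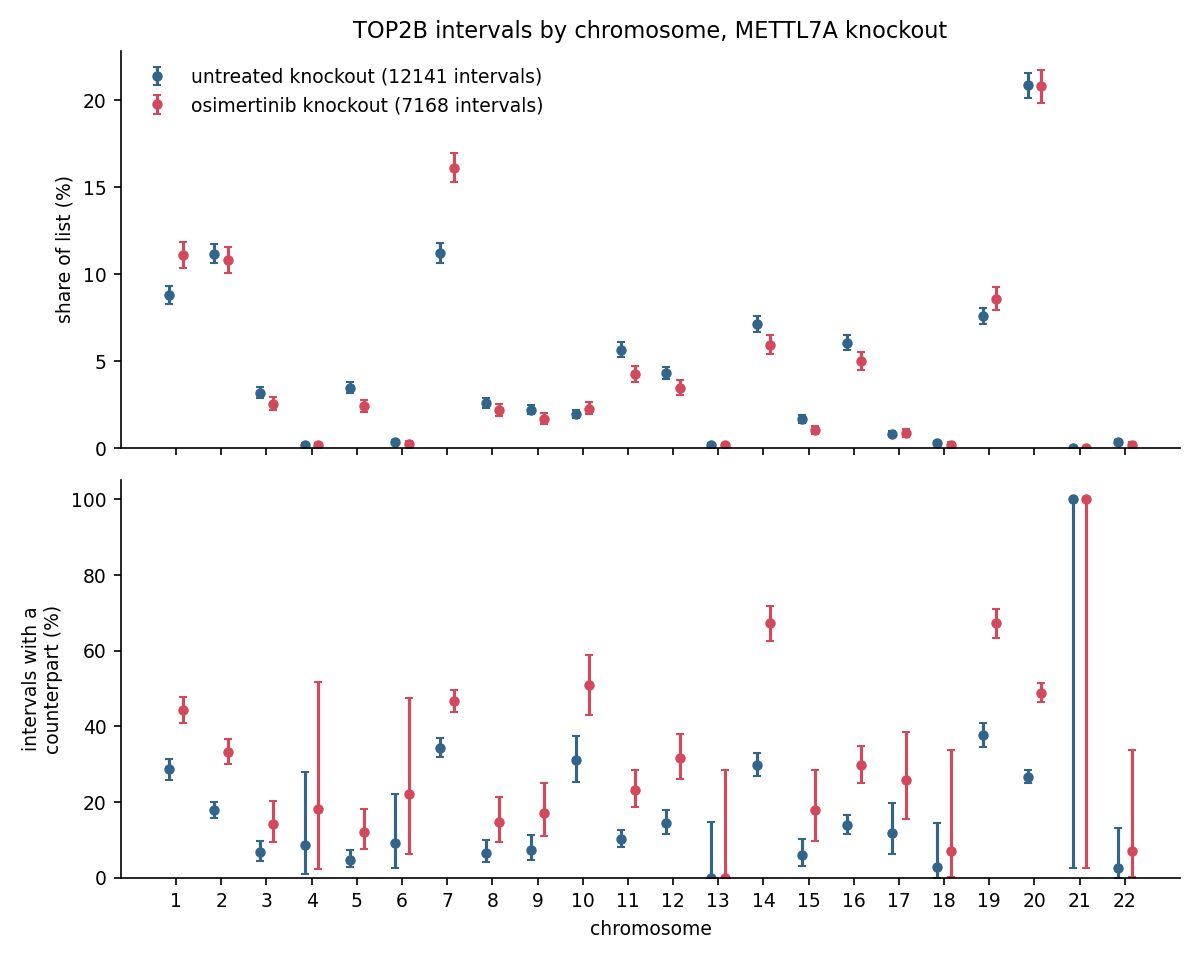
Share of each knockout list (%, upper panel) and share of intervals with a counterpart in the other knockout list (%, lower panel) for chromosomes 1 to 22, blue untreated and red treated, with exact 95% intervals for counting error. Chromosome 7 stands at 11.2% untreated and 16.1% treated in the upper panel, and the treated points of chromosomes 14 and 19 stand at 67.4% and 67.2% in the lower one.

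On the scale of 1 Mb, most well-filled windows held shares of the knockout lists that differed by less than 2-fold. Interval midpoints were counted in windows of 1 Mb, and those holding 20 or more in 1 of the lists were examined. Of 154 such windows, 21 (13.6%) differed in list share by 2-fold or more, with 5 higher under osimertinib (3.25%) and 16 lower (10.4%). In wild type the same rule gave 206 of 303 windows, 68%. All lower knockout windows but 78 to 79 Mb of chromosome 14 held under 20 treated intervals, and so were examined through the untreated list alone. Among the higher ones, 30 to 31 Mb of chromosome 7 and 176 to 177 Mb of chromosome 5 entered through the treated list alone. With the untreated list longer, the numbers higher and lower depend on this rule. The log2 ratio of shares had quartiles of -0.54 and 0.31 over the knockout windows, and of -2.28 and 1.75 over the wild-type windows. Among called peaks above the list median, 21 of 69 windows differed by 2-fold or more, 30.4%. Counted as numbers of intervals without allowing for the shorter treated list, 1 knockout window was 2-fold higher or more, and 57 were lower by that factor. Across the 1073 windows with an interval in either list, Pearson's r of the counts was 0.931 and Spearman's rho 0.687, as a description of 2 lists. The 313 windows with untreated intervals alone held at most 10 each, and the 110 with treated intervals alone at most 5. No window with over 10 intervals was thus empty in the other list.

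**Figure D3:**
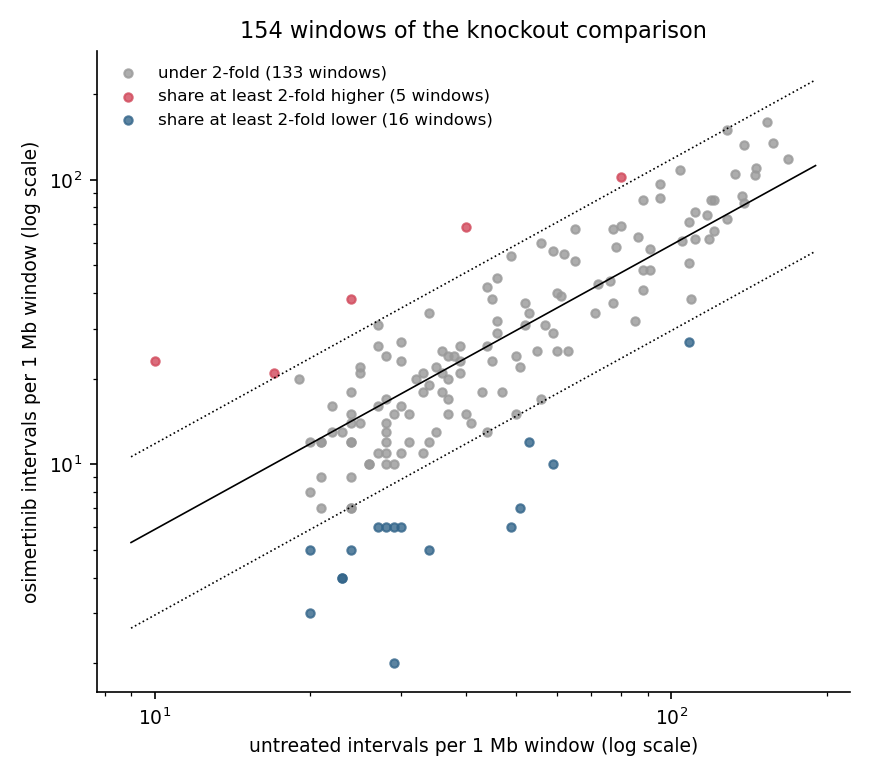
Number of treated against untreated knockout intervals in each of 154 windows of 1 Mb, both axes on log scales, with red for shares higher by 2-fold or more, blue for shares lower by as much and grey for the rest. The solid line marks equal shares of the lists and the dotted lines 2-fold differences, and 16 windows are blue and 5 red.

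Of the 5 windows with higher shares, 4 lay on chromosome 7. They were 30 to 31 Mb with 10 untreated and 23 treated intervals (ratio of shares 3.9, 1.78 to 9.17), 45 to 46 Mb with 40 and 68 (2.88, 1.92 to 4.37), 44 to 45 Mb with 24 and 38 (2.68, 1.57 to 4.67) and 47 to 48 Mb with 80 and 102 (2.16, 1.6 to 2.93). The window at 47 to 48 Mb had a ratio of 1.86 by called peaks and 1.83 by covered length. The fifth window, on chromosome 5 at 176 to 177 Mb, held 17 untreated and 21 treated intervals (2.09, 1.05 to 4.22) and a ratio of 1.53 by covered length.

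The higher share on chromosome 7 reached beyond these windows. In windows of 5 Mb, neighbouring windows past 1.5-fold in the same direction were joined, a rule made after the window values were seen. The longest such run went from 25 to 50 Mb of chromosome 7, with 293 untreated and 375 treated intervals (2.17, 1.86 to 2.53, and 2.16 by called peaks). It covered 508 kb untreated and 444 kb treated. Of the 375 treated intervals, 106 had an untreated counterpart, 28.3% (23.8 to 33.1), against 42.5% over the whole list. The other direction went the opposite way. Of the 293 untreated intervals, 91 had a treated counterpart, 31.1% (25.8 to 36.7), against 22.6% over the whole list. In wild type the same stretch went from 281 to 25 intervals, a ratio of 0.139 (0.0882 to 0.209).

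Farther along chromosome 7, the window at 55 to 56 Mb had the largest summed share of both lists. It held 153 untreated and 159 treated intervals, a ratio of shares of 1.76 (1.4 to 2.21). By called peaks it held 149 and 69, a ratio of 0.946 (0.701 to 1.27), since 82.4% of its treated intervals were pieces of split peaks. By covered length, 452 kb and 270 kb, the ratio was 1.51. Whether the share was higher in this window thus depended on how split peaks were counted. Of its treated intervals, 133 of 159 had an untreated counterpart, 83.6% (77 to 89), and of its untreated intervals 97 of 153, 63.4% (55.2 to 71). The position of EGFR within chromosome 7 was not examined.

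The other crowded windows differed in how far their ratio depended on split peaks. At 55 to 57 Mb of chromosome 19 the counts were 295 and 267 (1.53, 1.29 to 1.82), the ratio by called peaks was 1.05 (0.859 to 1.29), and 78.7% (73.2 to 83.4) of the treated intervals had a counterpart. At 60 to 61 Mb of chromosome 20 there were 168 and 118 intervals (1.19, 0.932 to 1.51), with 1.11 (0.847 to 1.44) by called peaks. At 61 to 62 Mb of chromosome 20 there were 128 and 149 (1.97, 1.55 to 2.52), and the share was also higher by called peaks (1.72, 1.32 to 2.24). Windows in which over 50% of the untreated intervals had a treated counterpart numbered 10 of 154. The only runs of neighbouring windows past that share were 55 to 57 Mb of chromosome 19 and 55 to 57 Mb of chromosome 7, each 2 Mb long, with 57.3% and 62.8%. Among the windows standing alone, the one with the most intervals was 61 to 62 Mb of chromosome 20, with 52.3%.

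Windows with lower shares under osimertinib lay on 7 chromosomes. The lowest was 53 to 54 Mb of chromosome 20, with 29 untreated and 2 treated intervals (0.117, 0.0135 to 0.462). None of the 29 had a counterpart, but with 2 treated intervals in the window few could have had one. In the 5 Mb around it the difference was smaller, 251 and 79 intervals (0.533, 0.409 to 0.689). On chromosome 2 the neighbouring windows from 222 to 225 Mb held 159 and 23 intervals (0.245, 0.151 to 0.381), and 301 kb and 24.8 kb of covered length. Of the 23 treated intervals there, 14 had an untreated counterpart. The window at 43 to 44 Mb of chromosome 2 held 20 and 3 (0.254, 0.0483 to 0.857). The first 3 Mb of chromosome 7 held 81 and 16 intervals (0.335, 0.183 to 0.577), which is the opposite direction to 25 to 50 Mb of the same chromosome. The window at 2 to 3 Mb, with 34 and 5 (0.249, 0.076 to 0.64), was among the 5 lowest. The most crowded of the lower windows, on chromosome 14 at 78 to 79 Mb, held 108 untreated and 27 treated intervals (0.423, 0.267 to 0.651), where 18 of the 27 treated intervals had a counterpart.

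Treated and untreated shares differed alike in both genotypes in some stretches and not in others. Over the 148 windows examined in both, the log2 ratios of the knockout and of wild type had a Pearson's r of 0.06 and a Spearman's rho of 0.06, given as a description of comparisons that share no list. Of the 14 windows lower in the knockout, 8 were also lower in wild type and 0 higher, while 80 of all 148 were lower in wild type. Of the 4 windows higher in the knockout, 3 were lower in wild type and 0 higher. From 170 to 175 Mb of chromosome 2 the share was higher in both, with ratios of 1.88 (1.44 to 2.45) in knockout cells and 1.89 (1.42 to 2.53) in wild-type cells. From 180 to 185 Mb of the same chromosome the ratios were 2.02 (1.4 to 2.91) and 0.848 (0.553 to 1.28). From 222 to 225 Mb of chromosome 2 the knockout ratio was 0.245 and the wild-type ratio 0.926, from 219 and 130 intervals. From 50 to 55 Mb of chromosome 20 both were lower, with a ratio of 0.533 for the knockout. The wild-type ratio there was 0.061 (0.0301 to 0.111). From 110 to 120 Mb of chromosome 1 the knockout had 536 and 516 intervals (1.63, 1.44 to 1.84, and 1.38 by called peaks), and wild type 466 and 17.

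Windows were also classed by their number of untreated wild-type intervals, and the ratio of knockout shares did not follow that number in 1 direction. Windows with 50 or more held 52.2% of the untreated and 57% of the treated knockout list, a ratio of 1.09 (1.05 to 1.14). Windows with 20 to 49 held 24% and 23.2% (0.967, 0.91 to 1.03, and 1.01 by called peaks). Windows with 5 to 19 held 15.8% and 12.8% (0.812, 0.75 to 0.879), and those with 1 to 4 held 6.5% and 5.3% (0.816, 0.72 to 0.923). Among windows with 1 or more, the ratio was thus highest in the most crowded class. The 178 windows with 0 held 185 and 119 intervals, a ratio of 1.09 (0.858 to 1.38). By called peaks the ratio was 1.02 (0.979 to 1.07) at 50 or more, 0.901 (0.83 to 0.978) at 5 to 19, 0.935 (0.823 to 1.06) at 1 to 4, and highest, at 1.31 (1.03 to 1.66), in the windows with 0. In wild type the ratio went from 2.49 in windows with 1 to 4 intervals to 0.464 in those with 50 or more. There, however, the untreated list itself set the classes.

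**Figure D4:**
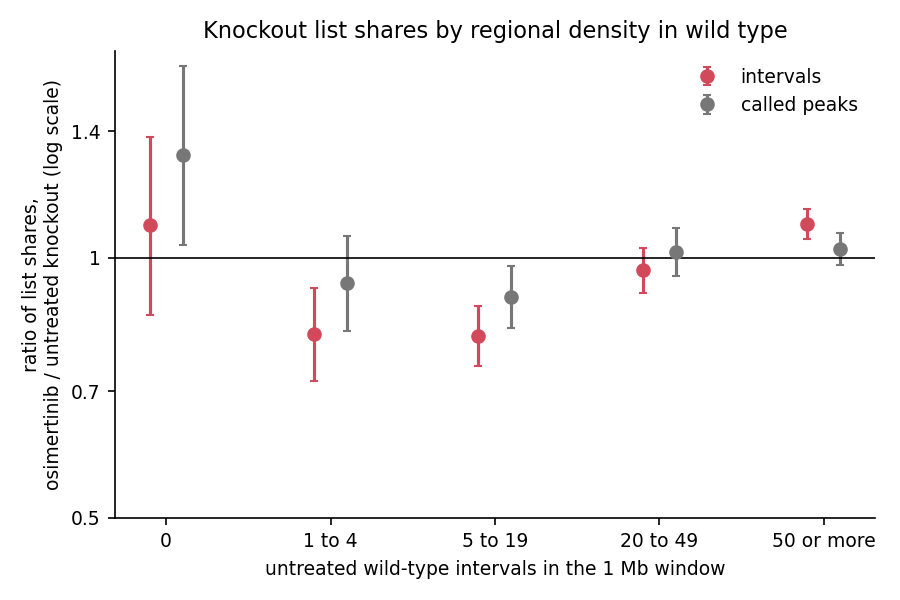
Ratio of list shares, treated over untreated knockout, on a log scale, for windows of 1 Mb classed by their number of untreated wild-type intervals, in red for intervals and in grey for called peaks, with exact 95% intervals for counting error. The red points stand at 1.09 for 0 intervals, 0.816 for 1 to 4 and 1.09 for 50 or more, and the grey points at 1.31, 0.935 and 1.02.

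Knockout positions found under both treatments were more often found in wild type too. Of the untreated knockout intervals with a treated counterpart, 81.8% (80.3 to 83.2) overlapped an untreated wild-type interval, against 44.9% (43.9 to 45.9) of those without. The difference was present in each of 5 width classes, from 62% and 33.7% among intervals of up to 1000 bp to 95.9% and 74.8% among those over 3000 bp. Overlap with treated wild type was less frequent, at 22.3% (20.7 to 23.9) with a counterpart and 9.38% (8.8 to 9.99) without. Of the 4120 treated knockout intervals without an untreated knockout counterpart, 1797 overlapped an untreated wild-type interval, 43.6% (42.1 to 45.1). That share was lower than among the treated intervals with a counterpart, where it was 79.8% (78.4 to 81.2). Untreated wild-type intervals were the widest of the 4 lists, with a median of 2600 bp and 47.5 Mb covered, which makes an overlap with them easier. Untreated knockout intervals had a treated counterpart in 2.7% of cases (0.883 to 6.19) in 1 Mb windows with 0 untreated wild-type intervals. In windows with 50 or more the share was 31.1% (30 to 32.3). How much of the contrast goes with this density was not tested.

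**Figure D5:**
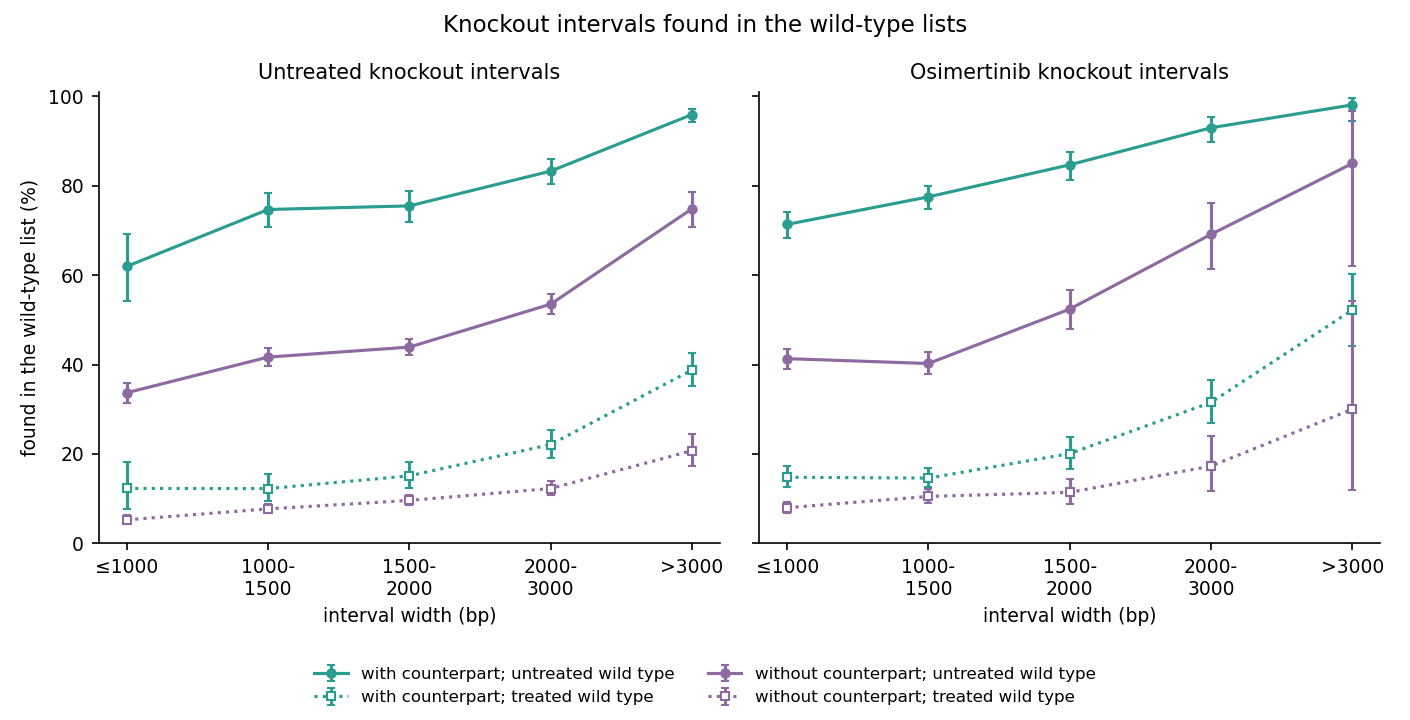
Share of knockout intervals (%) that overlap an interval of a wild-type list, by interval width in bp, for untreated (left) and treated (right) knockout intervals, in green with and in purple without a counterpart in the other knockout list. Filled circles with solid lines are untreated wild type, open squares with dotted lines treated wild type, bars are exact 95% intervals for counting error, and at up to 1000 bp the left panel shows 62% and 33.7% for untreated wild type.

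The share of untreated intervals with a treated counterpart was higher in the knockout than in wild type by 7.47 percentage points (6.53 to 8.41), at 22.6% against 15.1%. The sign of that difference depended on crowding. Among intervals with no neighbour within 100 kb the knockout share was lower, 4.55% against 10.3%, a difference of -5.74 points (-8.21 to -3.34). With 6 to 10 neighbours the shares were 15.3% and 14.96%. With over 10 neighbours the knockout share was higher, 35.2% against 17.2%, a difference of 18 points (16.5 to 19.5). By width the difference was positive in each of 5 classes, from 3.75 points (1.88 to 5.51) up to 1000 bp to 35.3 points (32.3 to 38.3) over 3000 bp. Counted by called peaks and their neighbours, the shares were 4.53% and 10.9% with no neighbour, 15.9% and 22.1% with 6 to 10, and 36% and 15.8% with over 10. Each share rests on 1 list per condition, so whether the genotypes differ in their response to treatment could not be tested.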

How the data were processed

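TOP2B CUT&RUN in PC9 cells was analysed from 4 deposited peak lists, each made by the authors from 2 replicate libraries. The submitters' processing notes name SEACR, Bowtie2 2.4.2, bedtools 2.30, SAMtools 1.16, deepTools 3.5.1, FastQC and Trimmomatic, and the build GRCh37. The sources used here do not give how SEACR was run, against which control, or whether regions were excluded. Column meanings were read from the values: the deposited score is the area of a called peak, and the deposited signal is its maximum. Their scaling and the depth of the libraries are unknown. The deposited text field gives the region of the maximum, which lay outside the interval for 12% of untreated and 50.5% of treated knockout intervals.

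Overlaps, windows and shares were computed with Python 3.11.15, pandas 2.3.3, numpy 2.4.6, scipy 1.17.1 and statsmodels 0.14.6, and tested on simulated intervals. Shares carry exact Clopper-Pearson 95% intervals, ratios of shares exact conditional intervals, and differences of shares Newcombe intervals, all for counting error only. In log2 ratios 0.5 intervals were added to each count. Named positions were the 5 windows with the highest and the 5 with the lowest log2 ratio, the 5 with the largest summed share, chromosomes past 1.5-fold, the 5 highest intervals without a counterpart in each list, the 5 highest shared peaks, and the 3 longest runs of windows with over 50% shared. The joined runs of windows, and any other position outside this rule, were chosen after values were seen. Members, lists and rules were chosen with earlier results of these data known. A planned comparison of gene promoters was not run, since no GRCh37 annotation was used here.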

Additional observations from a re-analysis of the deposited data

Results flagged for a closer look

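Some regions went in opposite directions by at least the set fold in the 2 genotypes. None of these differences was tested, because each condition had 1 list. Chromosome 22 had a ratio of list shares of 0.593 (0.298 to 1.11) in the knockout, from 40 and 14 intervals. In wild type it was 2.58 (1.99 to 3.36), from 96 and 159. The knockout limits include equality. The knockout ratio was 0.733 by called peaks and 0.75 by covered length, both short of the set 1.5-fold. On chromosome 7 the log2 ratio of shares at 44 to 45 Mb was 1.41 in the knockout and -1.52 in wild type. At 45 to 46 Mb it was 1.52 and -2.31, and at 47 to 48 Mb it was 1.11 and -3.97. In wild type these 3 windows held 33 and 7, 42 and 5, and 85 and 3 intervals.

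Chromosome X lies outside the autosomes described here. It held 351 untreated and 324 treated knockout intervals, 2.81% and 4.32% of the full lists, a ratio of 1.54 (95% interval 1.32 to 1.8). In wild type it held 262 and 21.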

How the results depend on the processing

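The share of untreated knockout intervals with a treated counterpart, 22.6%, was 8.33% with an overlap of 50% of both intervals, 12.6% with the midpoint inside the other interval, 19.9% with called peaks above the list median, 31.1% with equal numbers of called peaks, 23.4% with chromosome X and 18.6% without the densest 1% of windows. The share of treated intervals, 42.5%, was 14.1%, 33.7%, 39.3%, 30.7%, 43.7% and 36.4% in the same order, and 41.1% by called peaks. The difference between knockout and wild type, 7.47 points, was 5.36, 6.39, 10.7, 13.7, 8.52 and 5.24 points, and 5.09 by called peaks, so its sign held under these 7 alternatives. The ratio of treated to untreated number, 0.59, was 0.489 by called peaks, 0.394 by length and 0.555 without the densest windows. The 5 higher and 16 lower windows became 1 and 57 of 154 by number in place of share, 8 and 40 of 272 with at least 10 intervals, 2 and 5 of 78 with at least 40, and 10 and 11 of 69 with called peaks above the list median. These come to 37.7%, 17.6%, 8.97% and 30.4% of windows, against 13.6%. With windows of 5 Mb 5 were higher and 10 lower, of 107. The cause was not tested. Of 45 values for the named windows under called peaks, length or 5 Mb windows, 37 lay within the 95% interval of the value given and 0 differences past 2-fold reversed. Of 44 values for chromosomes, 42 lay within the 95% interval. By called peaks, however, chromosomes 15, 18 and 22 no longer differed by 1.5-fold, and the ratio of chromosome 19 fell below equality, at 0.973. Alternatives with called peaks in classes of neighbours and in blocks were added after the data had been seen.

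No paired analysis was possible because each list joins both replicates of its group, and for the same reason leaving out a replicate was not run. Depth is unknown, and heights come in few steps of signal, so a position missing from a list is not a measurement of no binding.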
